A study of Mus musculus with 31 samples.

Results

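The BCL2 family decides whether a cell releases its mitochondrial death signals, and 10 of its genes were followed here in mouse squamous cell carcinoma (SCC) cells whose proteasome was blocked with bortezomib. The 10 genes were taken from a list by symbol, translated to Entrez identifiers, and all 10 were present among the 20704 genes of the ribosome footprint table and the 24593 genes of the total RNA table. They comprise 3 pro-survival genes (Mcl1, Bcl2l1 and Bcl2l2), 2 effectors (Bax and Bak1) and 5 BH3-only genes (Bcl2l11, Bid, Bad, Bbc3 and Pmaip1).

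The study asked which mRNAs the integrated stress response (ISR) directs to ribosomes when unfolded proteins accumulate. The ISR acts through phosphorylation of serine 51 of the translation initiation factor eIF2α, which lowers general initiation while favouring selected mRNAs. All cells descend from 1 clonal Hras G12V, Tgfbr2-deleted mouse skin SCC line, in which a lentiviral, PGK promoter-driven, myc-tagged eIF2α transgene was introduced and the endogenous Eif2s1 alleles were destroyed by CRISPR-Cas9. The transgene carried either serine 51 (S51, ISR-competent) or alanine 51 (S51A, ISR-null), and the study pooled clones of the same genotype after isolating single cells. Each genotype thus has its own clones, so effects of eIF2α genotype and of clone cannot be told apart in any comparison of S51 with S51A below. S51 and S51A cells were each given vehicle (DMSO) or 100 nM bortezomib for 4.5 h as the labels state it, a time that the study's own text gives slightly differently. Ribosome-protected fragments (RPFs), the pieces of mRNA held inside a ribosome, were sequenced in 3 libraries of S51 vehicle and 4 of each other group, and total RNA in 4 libraries of each group. Nothing in the labels says that libraries came from separate cultures, and the study calls them technical in one place and independent in another, so p-values measure only the spread between these libraries. The series note states that the titles of S51 bortezomib and S51A vehicle samples had been exchanged and were later corrected. Columns were assigned by that note, and each comparison below rests on it.

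Pro-survival members such as MCL1 and BCL-XL (the product of Bcl2l1) hold the effectors BAX and BAK1 in check at the outer mitochondrial membrane. BH3-only proteins are sensors of damage and stress that bind the groove of the pro-survival members or engage the effectors directly, and freed effectors form the pores through which cytochrome c leaves. MCL1 and the BH3-only protein NOXA (the product of Pmaip1) are short-lived proteins that the proteasome removes, and RNA and RPF measurements do not report their protein amounts.

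The segment that the members share is the BH3 core, and it is shown because BH3-only proteins bind other family members through it. Each line gives 27 bases of the reference genome (RefSeq, GRCm38.p6, written on the coding strand), or 9 codons lying within 1 exon. Capitals mark the codons of the conserved leucine (methionine in Bcl2l2) and aspartate.
Mcl1: accCTGcggcgcgtgggcGACggcgtg
Bcl2l1: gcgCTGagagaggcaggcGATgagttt
Bcl2l2: gccATGcgggctgctggaGACgagttt
Bax: tgtCTCcggcgaattggaGATgaactg
Bak1: cagCTTgctctcatcggaGATgatatt
Bcl2l11: gagCTGcggcggatcggaGACgagttc
Bid: catCTCgcccaaataggcGATgagatg
Bad: gagCTCcgaaggatgagcGATgagttt
Bbc3: cagCTGcggcggatggcgGACgacctc
All 9 members searched held the core once in their coding sequence, and Pmaip1 is named only. In every window 3 codons separate the leucine or methionine from a codon for a small residue, and the aspartate codon follows that one. The search pattern required this spacing and these residues, so neither is an observation. The windows of Mcl1 (chr3:95659433-95659459), Bcl2l2 (chr14:54884514-54884540), Bcl2l11 (chr2:128147147-128147173), Bad (chr19:6950789-6950815) and Bbc3 (chr7:16313770-16313796) lie on the plus strand. Those of Bcl2l1 (chr2:152829700-152829726), Bax (chr7:45466000-45466026), Bak1 (chr17:27022534-27022560) and Bid (chr6:120897292-120897318) lie on the minus strand.

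In the same build the genes span chr3:95656944-95663179 for Mcl1 (Entrez 17210), chr2:152758732-152833803 for Bcl2l1 (12048), chr14:54883366-54890858 for Bcl2l2 (12050), chr7:45461695-45466903 for Bax (12028) and chr17:27019812-27028627 for Bak1 (12018). The BH3-only genes span chr2:128126038-128162547 for Bcl2l11 (12125), chr6:120893119-120917062 for Bid (12122), chr19:6941861-6951905 for Bad (12015) and chr7:16308398-16318334 for Bbc3 (170770) (Pmaip1 is Entrez 58801). Coding sequences run from 312 bases in Pmaip1 to 996 in Mcl1. Another gene overlaps Bcl2l1 (Cox4i2 and Gm32211), Bak1 (Ggnbp1), Bcl2l11 (Acoxl), Bid (Gm17812) and Bad (Gpr137 and Gm19053), and whether strand was used in counting is not given in the sources used here, so reads of those neighbours may enter the total RNA values.

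The promoters of 9 members (15 start sites, 250 bases before to 50 after each) were searched on both strands for the letters of response elements of ATF4 (TGATGNAAN), the cyclic AMP pathway (TGACGTCA) and heat shock factor (GAANNTTC, a pair of its inverted repeats). None of the 9 held the first or the second, and 1, Bad, held the third. The promoter of Pmaip1 was not among those searched. Among 32851 promoters of the same length, 3.95% held the first motif, 1.79% the second and 7.86% the third.

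Library totals ran from 1038826 to 4902237 counts for RPF and from 18758668 to 22994713 for total RNA. Levels are given as CPM (counts relative to the library total after TMM scaling), in the order of the replicate numbers. A filter on low counts kept 9457 genes for RPF and 11708 for total RNA. Of those kept for RPF, 9448 had any total RNA count and were tested for translational efficiency (TE, RPF relative to total RNA). All 10 members passed the filter in total RNA, while 8 passed it in RPF, since Bcl2l2 had 0 to 4 RPF counts and Bcl2l11 0 to 7 in a library. The RPF library of S51 vehicle replicate 2 stood apart, at a median distance of 0.394 (log2) from its group mates against 0.106 to 0.256 for the other RPF libraries. The members' RPF changes with bortezomib in S51 cells, and the TE changes of Pmaip1, Mcl1, Bcl2l1 and Bbc3, are therefore also given without that library. Its RPF CPM of Eif2s1, the replaced gene, was 81.2 beside 162 and 171 in its group mates, whereas total RNA of Eif2s1 lay between 279 and 314 CPM in every library and does not tell the transgene from the endogenous gene. RPF CPM of Eif2s1 was 213 to 260 in S51A vehicle, 148 to 196 in S51 bortezomib and 190 to 235 in S51A bortezomib. All 8 keratinocyte markers exceeded 1 CPM in every group (summed level 11053 to 16118 CPM), against 3 of 10 markers of other cell types (7.98 to 14.9 CPM). In bulk lysates, fewer cells with a transcript and less transcript per cell cannot be told apart.

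With bortezomib some members rose and others fell. In both genotypes Pmaip1 rose in RPF and in total RNA and Bcl2l1 fell in both, Bid fell in total RNA, and Mcl1 RPF did not pass the test in either genotype. In S51 total RNA, 4 of 10 members were higher (background 29.7% of all genes tested) and 4 lower (30.2%), with a median log2 change of 0.056 over the members and -0.0070 over all genes. In S51A total RNA, 2 were higher (27.5%) and 3 lower (28.9%), with medians of 0.077 and -0.012. In S51 RPF, 3 of 8 members passed (30.8%), 1 higher and 2 lower. In S51A RPF, 2 were higher (9.25%) and 1 lower (11.4%). A large part of all genes passed in these comparisons, the counts of members stand near that background, and nothing is read from them. A gene passed at an adjusted p below 0.05 in edgeR's quasi-likelihood test (Benjamini-Hochberg, BH, over all genes tested), the rule for every adjusted p below. When libraries were scaled only by their totals (below, library sizes alone), all genes shifted by a median of -0.16 in S51 and -0.13 in S51A total RNA, and the split of S51 total RNA calls went to 1957 higher and 5573 lower, and that of S51A, 3224 and 3378 before, to 1923 and 5012.

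**Figure D1:**
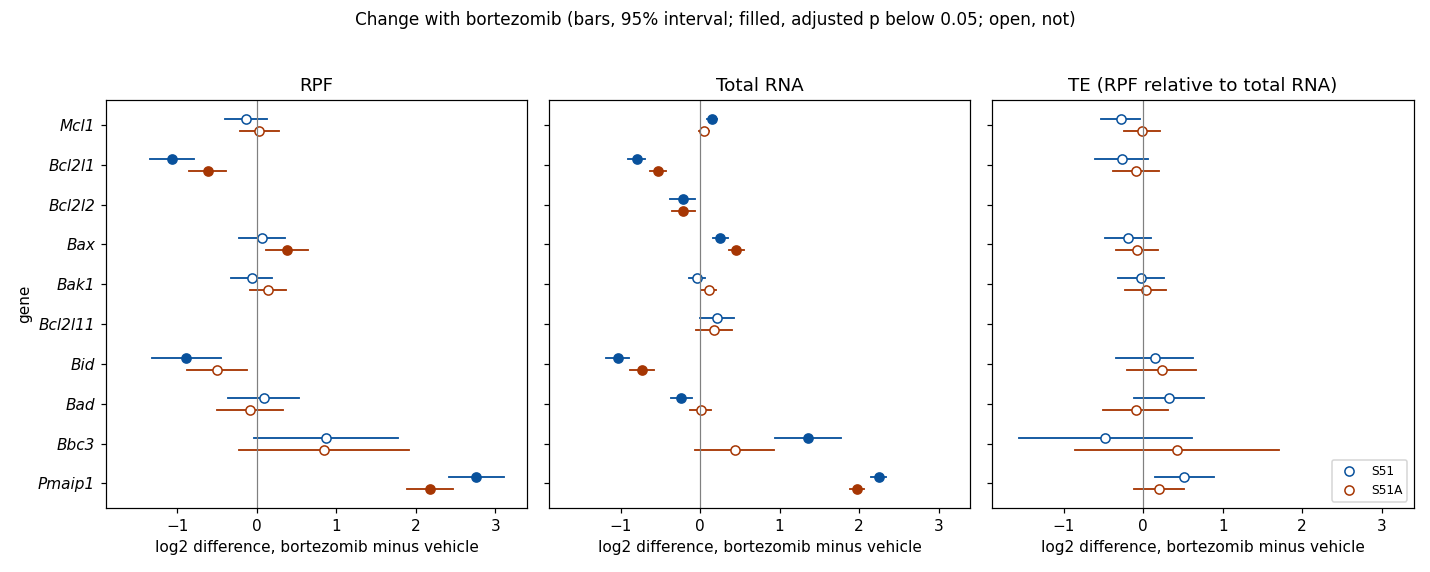
Log2 change with bortezomib (bortezomib minus vehicle) of each member in RPF, total RNA and TE, for S51 and S51A cells; points are edgeR estimates, filled where the adjusted p was below 0.05 and open elsewhere, and bars 95% intervals. Pmaip1 lies farthest to the right in RPF and total RNA, and Bcl2l1 and Bid lie left of 0 in both.

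Mcl1, a pro-survival gene whose product binds NOXA, BIM and BAK1, had the highest mean RPF level per coding length of the members without bortezomib. That level also carries the amount of transcript. Its total RNA CPM was 215, 202, 205 and 211 in S51 vehicle and 234, 233, 229 and 227 in S51 bortezomib, so that every treated library lay above every vehicle library. In S51A cells it was 225, 209, 215 and 211 with vehicle and 226, 224, 220.5 and 217 with bortezomib, and the groups overlapped. Total RNA of Mcl1 rose by 0.15 on the log2 scale in S51 (SE 0.0319, adjusted p = 2.83e-04, 1.11-fold), whereas with library sizes alone the log2 change was -0.0049. In S51A the change was 0.045 (adjusted p = 0.245). RPF CPM of Mcl1 was 151, 213 and 142 in S51 vehicle, 131, 178, 133 and 173 in S51 bortezomib, 157, 153, 151 and 138 in S51A vehicle and 134, 158, 156 and 164 in S51A bortezomib. The highest of the 15 values was S51 vehicle replicate 2, and treated and vehicle libraries overlapped in both genotypes. RPF changed by -0.13 in S51 (95% interval -0.40 to 0.13, adjusted p = 0.486), by 0.054 without that library, and by 0.032 in S51A (-0.21 to 0.27, adjusted p = 0.892).

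Bcl2l1, which encodes BCL-XL, fell in both kinds of library. Its total RNA CPM was 107, 96.02, 93.5 and 95.7 in S51 vehicle and 56.6, 59.3, 55.4 and 54.3 in S51 bortezomib, and 93.4, 94.5, 94.05 and 82.1 in S51A vehicle and 63.1, 66.8, 57.8 and 64.2 in S51A bortezomib. Every treated library was below every vehicle library of its genotype. Total RNA fell by 0.80 on the log2 scale in S51 (SE 0.0530, adjusted p = 3.64e-12) and by 0.53 in S51A (SE 0.0527, adjusted p = 6.99e-09). RPF CPM was 73.7, 67.2 and 61.2 in S51 vehicle and 37.8, 29.7, 29.5 and 31.9 in S51 bortezomib, and 68.2, 63.6, 65.2 and 49.7 in S51A vehicle and 41.2, 40.9, 35.9 and 40.2 in S51A bortezomib. Here too the groups did not overlap. RPF fell by 1.07 in S51 (SE 0.141, adjusted p = 4.96e-06, and by 1.07 also without replicate 2 of S51 vehicle), or 2.09-fold. The fall in S51A was 0.62 (SE 0.121, adjusted p = 6.96e-04), or 1.54-fold.

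Bcl2l2, which encodes the pro-survival BCL-W, was lower in S51 than in S51A cells. Total RNA CPM was 12.1, 14.1, 14.3 and 13.7 in S51 vehicle, 11.04, 11.6, 10.98 and 12.99 in S51 bortezomib, 18.7, 20.5, 19.5 and 18.8 in S51A vehicle and 15.2, 17.9, 15.7 and 18.04 in S51A bortezomib. Every S51 library was below every S51A library of the same treatment. The difference, S51 minus S51A, was -0.51 with vehicle (adjusted p = 1.59e-06) and -0.52 with bortezomib (adjusted p = 2.32e-06). With bortezomib it fell by 0.22 in S51 (adjusted p = 0.0192) and fell by 0.21 in S51A (adjusted p = 0.0161). The S51 call was lost without S51 bortezomib replicate 1 or 3 or S51 vehicle replicate 3, and the S51A call without S51A bortezomib replicate 1 or 3 or S51A vehicle replicate 2 (adjusted p 0.00650 to 0.0594 and 0.00921 to 0.0738 over the libraries left out one by one). Its RPFs were at or under 1.04 CPM in every library and too few to test.

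**Figure D2:**
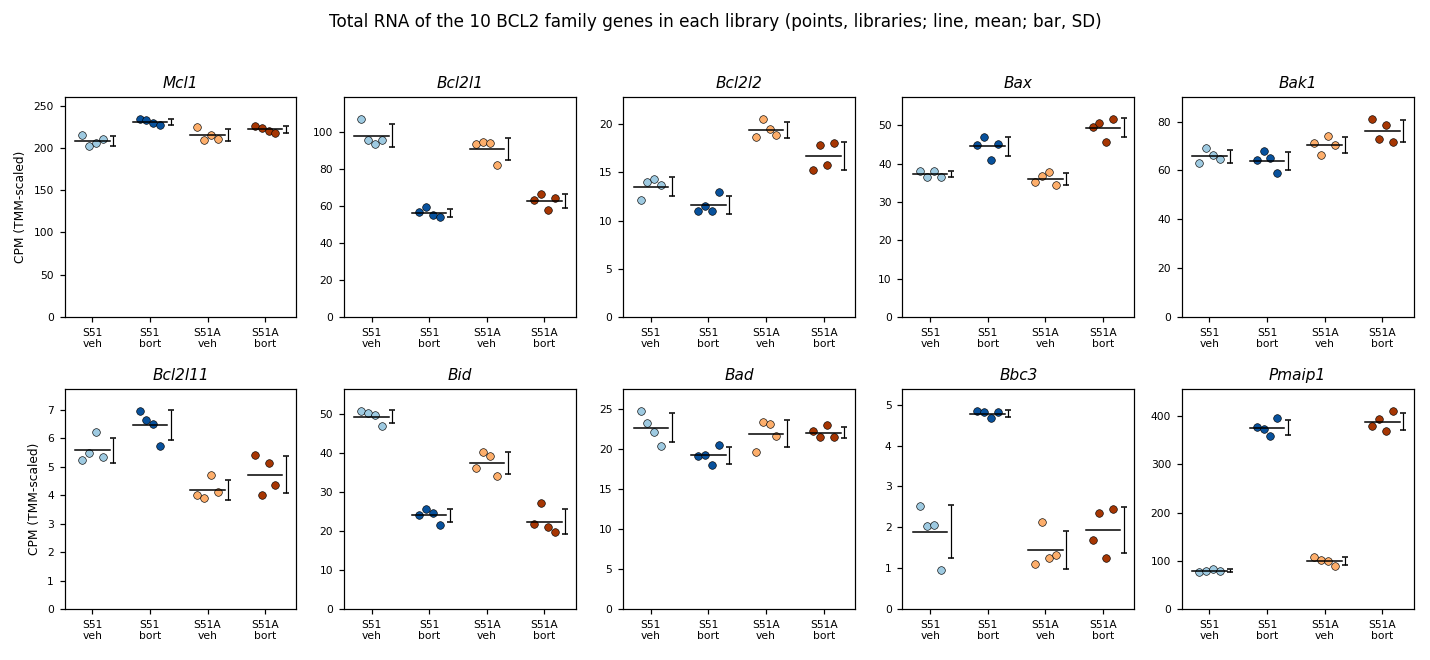
Total RNA level (CPM, vertical axis from 0) of the 10 members in each library, by genotype and treatment; points are libraries, lines are means and bars SDs. Pmaip1 stands between 76.8 and 107 CPM in the vehicle libraries and between 359 and 411 in the bortezomib libraries.

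Of the effectors, Bax rose in total RNA of both genotypes. Its total RNA CPM was 38.1, 36.5, 38.1 and 36.6 in S51 vehicle and 44.9, 47.02, 41.1 and 45.1 in S51 bortezomib, and 35.2, 36.8, 37.8 and 34.5 in S51A vehicle and 49.7, 50.6, 45.8 and 51.7 in S51A bortezomib. Each treated library was above each vehicle library of its genotype. Bax total RNA rose by 0.26 in S51 (SE 0.0506, adjusted p = 1.14e-04) and by 0.46 in S51A (SE 0.0504, adjusted p = 3.69e-08), and with library sizes alone the S51 rise was 0.10 (adjusted p = 0.0786). Bax RPF CPM was 55.97, 84.1 and 55.8 in S51 vehicle, 69.9, 77.5, 56.7 and 69.5 in S51 bortezomib, 57.01, 57.4, 50.2 and 46.04 in S51A vehicle and 61.9, 73.6, 67.6 and 70.4 in S51A bortezomib. The S51 groups overlapped, with vehicle replicate 2 the highest, and the S51A groups did not. Bax RPF changed by 0.066 in S51 (95% interval -0.22 to 0.36, adjusted p = 0.769), or 0.26 without that library. It rose by 0.38 in S51A (SE 0.133, adjusted p = 0.0491), a call lost when any of 7 of the 8 S51A libraries was left out (all except bortezomib replicate 1, adjusted p 0.0482 to 0.154 over the 8) and with library sizes alone (adjusted p = 0.0683).

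Bak1, the other effector, did not pass the test for bortezomib in either genotype with all libraries and no replicate block. Its total RNA CPM was 62.9, 69.2, 66.1 and 64.7 in S51 vehicle, 64.3, 67.8, 65.03 and 58.9 in S51 bortezomib, 71.1, 66.4, 74.1 and 70.5 in S51A vehicle and 81.02, 72.98, 78.5 and 71.8 in S51A bortezomib. The change with bortezomib was -0.038 in S51 (95% interval -0.14 to 0.060, adjusted p = 0.529) and 0.11 in S51A (0.013 to 0.21, adjusted p = 0.0625). The S51A change passed without S51A bortezomib replicate 2 or 4 or S51A vehicle replicate 3 (adjusted p 0.0289 to 0.205 over the libraries left out one by one) and with RLE scaling (0.0498). With the replicate number as a block (by the data, these numbers pair the S51A total RNA libraries) it was 0.11 and passed (adjusted p = 0.0352). With library sizes alone the S51 change was -0.19 (adjusted p = 0.00207) and the S51A change -0.0062. All bortezomib libraries of S51 lay below those of S51A, a difference of -0.25 (SE 0.0496, adjusted p = 1.15e-04). Bak1 RPF lay between 60.6 and 86.9 CPM in all 15 libraries, with changes of -0.066 in S51 (adjusted p = 0.742, and -0.14 without vehicle replicate 2) and 0.14 in S51A (adjusted p = 0.454).

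Pmaip1, the BH3-only gene of NOXA, which binds MCL1 preferentially, had the largest log2 change with bortezomib of the members tested, in RPF and in total RNA of both genotypes. Total RNA CPM was 76.8, 78.2, 84.04 and 78.7 in S51 vehicle and 377, 374, 359 and 396 in S51 bortezomib. In S51A cells it was 107, 102, 98.8 and 88.7 with vehicle and 381, 395, 370.2 and 411 with bortezomib. The treated libraries of both genotypes overlapped each other and lay above all vehicle libraries, and within vehicle every S51 library lay below every S51A library. Total RNA rose by 2.24 in S51 (SE 0.0476, adjusted p = 1.79e-21, 4.74-fold) and by 1.97 in S51A (SE 0.0469, adjusted p = 2.13e-20, 3.92-fold). RPF CPM of Pmaip1 was 19.8, 10.2 and 25.6 in S51 vehicle, 129, 131, 133 and 137 in S51 bortezomib, 29.9, 26.8, 24.5 and 22.7 in S51A vehicle and 126, 122, 109.7 and 106 in S51A bortezomib. S51 vehicle replicate 2 was the lowest library, and all S51 bortezomib libraries exceeded all S51A bortezomib libraries. RPF rose by 2.76 in S51 (SE 0.177, adjusted p = 1.12e-10, 6.77-fold, and 2.52 on the log2 scale without that library). The S51A rise was 2.17 (SE 0.148, adjusted p = 6.24e-10, 4.51-fold).

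Bid, whose product is cut by caspase-8 to link death receptors with mitochondria, fell. Its total RNA CPM was 50.8, 50.2, 49.8 and 46.9 in S51 vehicle and 24.2, 25.7, 24.7 and 21.7 in S51 bortezomib, and 36.2, 40.4, 39.3 and 34.1 in S51A vehicle and 21.9, 27.1, 20.96 and 19.8 in S51A bortezomib. No treated library reached the lowest vehicle library of its genotype, and with vehicle all S51 libraries exceeded all S51A libraries. Bid total RNA fell by 1.04 in S51 (SE 0.0749, adjusted p = 1.71e-11) and by 0.74 in S51A (SE 0.0770, adjusted p = 1.45e-08). RPF CPM was 30.5, 32.9 and 38.3 in S51 vehicle, 21.8, 13.4, 17.02 and 20.7 in S51 bortezomib, 22.9, 29.4, 29.5 and 27.99 in S51A vehicle and 17.1, 29.7, 11.96 and 19.7 in S51A bortezomib. The S51 groups were apart, while S51A bortezomib replicate 2 was above all S51A vehicle libraries. RPF fell by 0.89 in S51 (SE 0.220, adjusted p = 0.00351, and by 0.91 without vehicle replicate 2), and the S51A change was -0.50 (adjusted p = 0.0685), or -0.73 (adjusted p = 0.00800) without S51A bortezomib replicate 2. It passed too when only the S51A groups were fitted (-0.51, adjusted p = 0.0278).

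Bbc3 encodes PUMA, a p53 target that binds all pro-survival members, and was a rare transcript. Its total RNA CPM was 2.52, 2.04, 2.07 and 0.963 in S51 vehicle and 4.84, 4.82, 4.67 and 4.81 in S51 bortezomib, and 1.095, 2.12, 1.25 and 1.31 in S51A vehicle and 1.69, 2.36, 1.26 and 2.45 in S51A bortezomib. The 4 S51 bortezomib libraries lay within a narrow range above the other 12. Total RNA rose by 1.35 in S51 (SE 0.212, adjusted p = 4.34e-06, 2.55-fold). In S51A the change was 0.43 (95% interval -0.065 to 0.93, adjusted p = 0.151), and 0.68 (adjusted p = 0.0362) without S51A vehicle replicate 2. Its RPF counts were few, at 8, 14 and 9 in S51 vehicle, 10, 9, 11 and 14 in S51 bortezomib, 0, 8, 6 and 8 in S51A vehicle and 7, 9, 2 and 9 in S51A bortezomib. These counts correspond to RPF CPM of 2.83, 6.77 and 2.24, of 7.28, 8.61, 4.16 and 7.84, of 0, 1.69, 2.49 and 1.62 and of 2.26, 4.39, 1.04 and 3.48 in the same order. Treated and vehicle libraries overlapped in both genotypes. The RPF change was 0.87 in S51 (adjusted p = 0.161), 1.37 without S51 vehicle replicate 2 (adjusted p = 0.0251), 0.49 without replicate 3 (adjusted p = 0.471), and 0.84 in S51A (adjusted p = 0.286).

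Bcl2l11 and Bad completed the BH3-only group with small changes. Total RNA of Bcl2l11, which encodes BIM, a binder of all pro-survival members, was 5.23, 5.48, 6.24 and 5.36 CPM in S51 vehicle, 6.96, 6.65, 6.51 and 5.73 in S51 bortezomib, 4.02, 3.92, 4.71 and 4.12 in S51A vehicle and 5.41, 4.005, 5.13 and 4.38 in S51A bortezomib. It was higher in all S51 than in all S51A libraries of the same treatment, by 0.41 with vehicle (adjusted p = 0.00256) and 0.45 with bortezomib (adjusted p = 9.02e-04). Its changes with bortezomib were 0.21 in S51 (adjusted p = 0.0896) and 0.17 in S51A (adjusted p = 0.220), the former past the test without S51 bortezomib replicate 4 (adjusted p = 0.0494) or S51 vehicle replicate 3 (adjusted p = 0.0492). Its RPFs were at or under 2.34 CPM in every library and too few to test. BAD, which growth factor signalling keeps phosphorylated and away from BCL-XL, had total RNA CPM of 24.7, 23.3, 22.1 and 20.4 in S51 vehicle, 19.1, 19.3, 17.9 and 20.5 in S51 bortezomib, 19.6, 23.4, 23.1 and 21.6 in S51A vehicle and 22.2, 21.5, 22.9 and 21.5 in S51A bortezomib. Bad total RNA fell by 0.24 in S51 (SE 0.0684, adjusted p = 0.00462) although the groups overlapped, and the S51A change was 0.0075 (95% interval -0.13 to 0.14, adjusted p = 0.935). Bad RPF lay between 13.8 and 33.5 CPM, with changes of 0.086 in S51 (adjusted p = 0.808, and 0.12 without vehicle replicate 2) and -0.085 in S51A (adjusted p = 0.823).

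**Figure D3:**
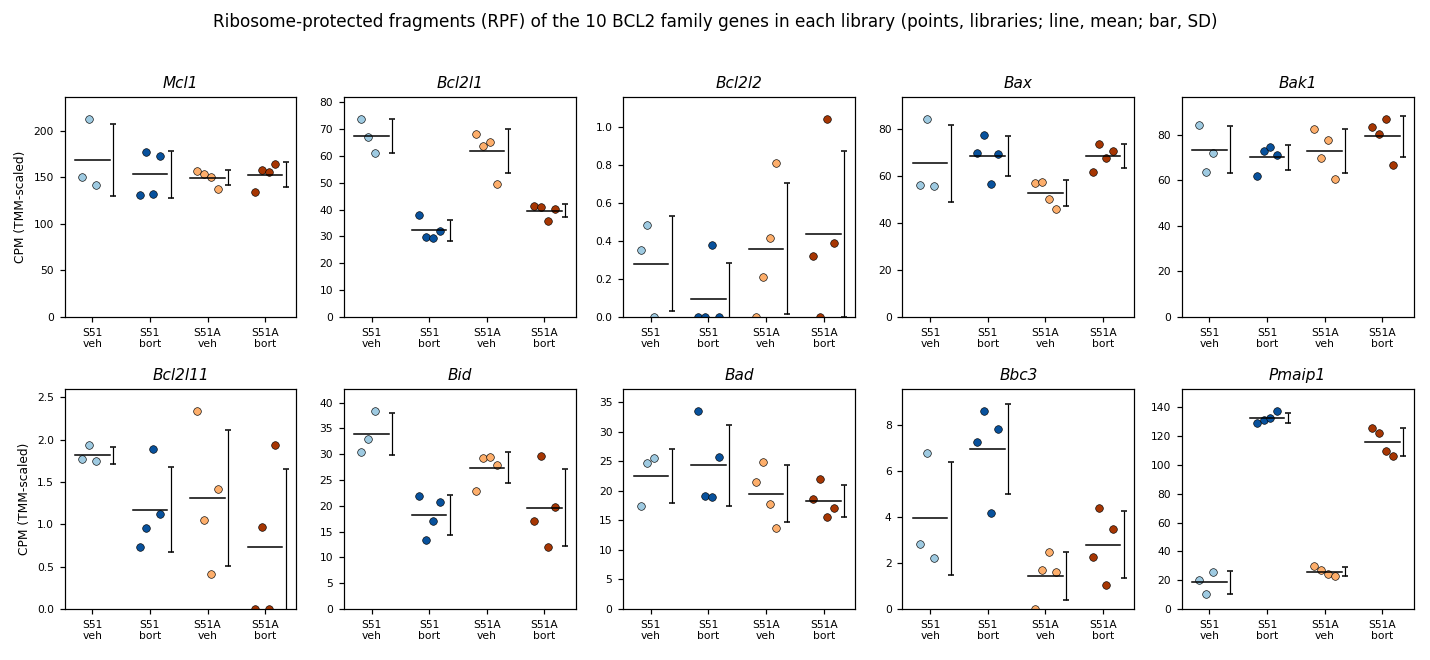
RPF level (CPM, vertical axis from 0) of the 10 members in each of the 15 libraries; points are libraries, lines are means and bars SDs. Pmaip1 rises from at most 29.9 CPM with vehicle to at least 106 CPM with bortezomib, Bcl2l1 falls in both genotypes, and Bcl2l2 and Bcl2l11 stay under 2.4 CPM.

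The 2 genotypes, which also differ in their clones, were then compared under the same treatment. With vehicle, total RNA of 2 of 10 members was higher in S51 (background 32.4%), Bid by 0.40 (adjusted p = 3.12e-05) and Bcl2l11 as given above. Another 2 were lower (31.4%), Bcl2l2 as given above and Pmaip1 by -0.32 (adjusted p = 4.57e-06). With bortezomib, 2 were higher (32.4%) and 5 lower (33.3%). The higher ones were Bcl2l11 and Bbc3, the latter by 1.29 (SE 0.214, adjusted p = 7.84e-06). The lower ones were Bcl2l2, Bak1, Bcl2l1 by -0.16 (adjusted p = 0.0123), Bax by -0.15 (adjusted p = 0.00960) and Bad by -0.20 (adjusted p = 0.0143). The Bcl2l1 call was lost without S51A bortezomib replicate 2 (adjusted p = 0.0542), and those of Bax and Bad without S51 bortezomib replicate 3 (adjusted p = 0.0532 and 0.0548).

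In RPF, with vehicle, none of 8 passed the edgeR test in either direction (background 13.8% higher and 14.8% lower), with 2 at an unadjusted p below 0.05 and log2 differences between -0.39 for Pmaip1 and 1.19 for Bbc3. Without S51 vehicle replicate 3, 3 members passed, among them Bbc3 at 1.58 and Pmaip1 at -0.68, while without replicate 2 these differences were 0.68 and -0.15. The share of all genes passing without replicate 3 is not given, so nothing is read from that count. With bortezomib 1 of 8 was higher (14.9%) and 0 lower (16.6%). That one was Bbc3, by 1.22 (SE 0.474, adjusted p = 0.0497), from the few counts given above, and the call was lost without any of 6 of the 8 bortezomib libraries (all except S51 replicate 3 and S51A replicate 2, adjusted p 0.0323 to 0.125 over the 8). Pmaip1 RPF, apart in all libraries, was higher in S51 bortezomib by 0.19 (adjusted p = 0.295) and did not pass.

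Whether the response to bortezomib differed between the genotypes was tested as an interaction. In total RNA, 5 of 10 members passed (background 21.6%), 2 with a difference above 0 and 3 below. The rise of Pmaip1 was larger in S51 by 0.27 (SE 0.0668, adjusted p = 0.00462), from a lower vehicle level to an overlapping treated range. The fall of Bcl2l1 was larger by -0.27 (SE 0.0747, adjusted p = 0.0113), as was that of Bid by -0.30 (adjusted p = 0.0482). The rise of Bax was smaller in S51, by -0.20 (adjusted p = 0.0463), and that of Bbc3 larger, by 0.92 (SE 0.331, adjusted p = 0.0491). The last 3 calls were narrow. Leaving out single total RNA libraries ended the Bid call for 10 of 16 (adjusted p 0.0182 to 0.151), the Bax call for 13 (0.0204 to 0.108) and the Bbc3 call for 12 (0.0249 to 0.171), while their differences stayed within -0.36 to -0.19, -0.24 to -0.16 and 0.67 to 1.08. The Bid call was kept without S51 bortezomib replicate 2, S51 vehicle replicate 4, S51A bortezomib replicate 3 or 4, or S51A vehicle replicate 2 or 3. The Bax call was kept without S51 bortezomib replicate 2, S51A bortezomib replicate 3 or S51A vehicle replicate 3, and the Bbc3 call without S51 vehicle replicate 1, S51A bortezomib replicate 2 or 4, or S51A vehicle replicate 1. The response difference of Bad was -0.24 (adjusted p = 0.0734), and passed without S51 vehicle replicate 4 (0.0346) and with library sizes alone (0.0390). RLE scaling ended the Bax and Bid calls (adjusted p = 0.0524 and 0.0532), no filter that of Bax (0.0728) and library sizes alone that of Bbc3 (0.0569). In RPF no response difference passed in 8 members (1.04% of all genes higher and 1.31% lower). At an unadjusted p below 0.05 stood 2 of them, Pmaip1 at 0.59 (adjusted p = 0.200, 0.34 without S51 vehicle replicate 2, and 0.90 with an adjusted p of 0.0268 without replicate 3) and Bcl2l1 at -0.45 (adjusted p = 0.235, and -0.46 without S51 vehicle replicate 2).

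TE asks whether ribosome occupancy moved beyond the transcript. No member passed the edgeR test in any of the 5 TE comparisons. The background of called genes was 1.42% higher and 5.65% lower with bortezomib in S51, 0.0741% and 1.10% in S51A, 0.0212% and 0.0635% for S51 against S51A with vehicle, 0.677% and 4.09% with bortezomib, and 0.0953% and 0.889% for the response difference. At an unadjusted p below 0.05 stood 2, 0, 0, 1 and 0 members in that order, and DESeq2 called 1, 0, 0, 1 and 0. The shares of all genes for these counts are not given, so nothing is read from them. For Pmaip1 the ratio of same-numbered RPF and total RNA libraries was 0.130 to 0.305 in S51 vehicle, 0.341 to 0.369 in S51 bortezomib, 0.248 to 0.279 in S51A vehicle and 0.258 to 0.330 in S51A bortezomib. The lowest ratio was that of S51 vehicle replicate 2. Pmaip1 TE was 0.52 higher with bortezomib in S51 (SE 0.191, adjusted p = 0.0942), 0.28 without S51 vehicle replicate 2 and 0.82 (adjusted p = 0.00944) without replicate 3. It passed with DESeq2 (adjusted p = 0.00973), with library sizes alone (adjusted p = 0.0167) and with 1 dispersion shared by both kinds of library (adjusted p = 0.0478). With the replicate block, which pairs RPF and total RNA libraries by number, it passed as well. The shared dispersion was the first form of the fit, and the dispersions within each kind that every other TE value rests on were chosen after seeing the data. In S51A the Pmaip1 TE change was 0.20 (95% interval -0.11 to 0.52), and the difference between the responses was 0.31 (adjusted p = 0.771), with 0.066 without S51 vehicle replicate 2 and 0.63 without replicate 3 (adjusted p = 0.957 and 0.236).

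Mcl1 TE changed by -0.28 with bortezomib in S51 (SE 0.125, adjusted p = 0.184), -0.095 without S51 vehicle replicate 2 and -0.42 (adjusted p = 0.0260) without replicate 3. In S51A it changed by -0.013 (95% interval -0.24 to 0.21). Bcl2l1 TE changed by -0.27 in S51 (adjusted p = 0.394, and -0.27 without vehicle replicate 2) and -0.093 in S51A (adjusted p = 1.000), beside the falls of its RPFs and total RNA given above. Bad TE was 0.59 higher in S51 than in S51A bortezomib libraries (adjusted p = 0.145, and 0.0397 with DESeq2). With library sizes alone all genes shifted by a median of 0.15 in the S51 TE comparison, and its calls, 134 higher and 534 lower before, split into 745 and 336. Between the genotypes with bortezomib the split of TE calls went from 64 higher and 386 lower to 205 and 256, and in the TE response difference from 9 and 84 to 10 and 36. That of the response difference went from 98 and 124 to 135 and 112 in RPF and from 1404 and 1122 to 1084 and 1638 in total RNA. The comparisons share libraries, and their values stand side by side here without a measure of agreement.

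Between genes, levels can be compared only per length. RPF CPM per kilobase of the coding sequence counted was 180.2 ± 41.01 (SD) for Mcl1 in S51 vehicle, followed by 129 ± 18.1 for Bak1, 126 ± 31.4 for Bax, 104 ± 9.61 for Bcl2l1, 73.6 ± 31.1 for Pmaip1, 64.2 ± 7.64 for Bid and 40.6 ± 8.15 for Bad. From Bak1 to Bid each neighbour in this order lay within the larger of both SDs, so that neighbours are not resolved. Bak1, Bax and Bcl2l1, each at 94.5 or more in every library, were nevertheless above Bid, at 72.6 or less. Bbc3 at 7.56 ± 4.71, Bcl2l11 at 3.42 ± 0.194 and Bcl2l2 at 0.535 ± 0.479 were at the low end, the first pair of these again within the larger SD. In S51A vehicle the order began with Mcl1 at 160.1 ± 9.003, Bak1 at 128 ± 16.9, Pmaip1 at 103 ± 12.3 and Bax at 102 ± 10.6, of which the last pair did not differ beyond the spread. With bortezomib Pmaip1 came first, at 526 ± 14.1 in S51 and 460.00 ± 37.8 in S51A, above Mcl1 at 164 ± 26.99 and 164 ± 13.98, while Bcl2l1 stood at 49.7 ± 6.03 and 61.1 ± 3.85.

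**Figure D4:**
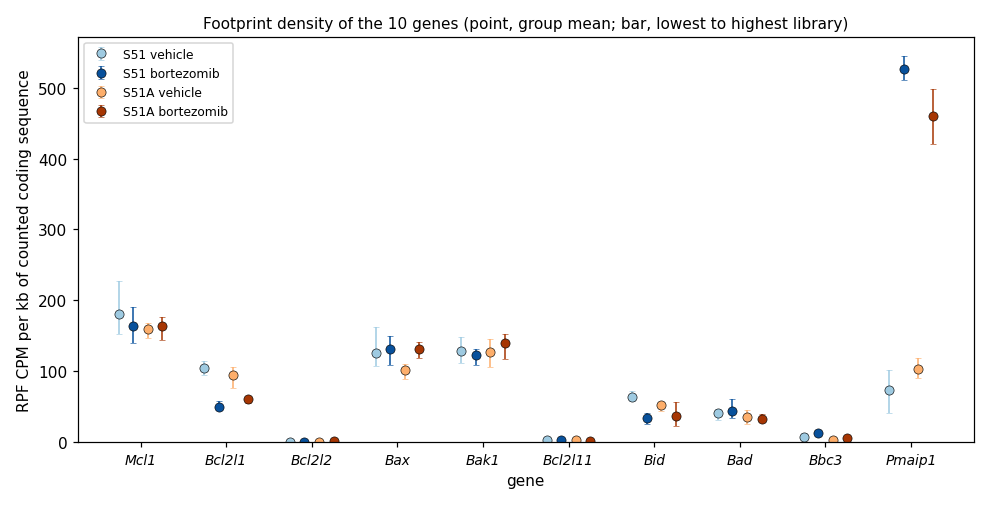
RPF CPM per kilobase of counted coding sequence for each member in the 4 groups; points are group means and bars run from the lowest to the highest library. Pmaip1 moves from below Mcl1 with vehicle to above all other members with bortezomib in both genotypes.

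Genes around the family were described from 4 lists. Of 16 other BCL2 family genes, 8 were expressed enough to test in total RNA, of which 1 was higher (background 29.7%) and 5 lower (30.2%) with bortezomib in S51, and 2 higher (27.5%) and 5 lower (28.9%) in S51A. Bcl2 itself was at the low end (-0.81 in S51 and -0.98 in S51A, adjusted p = 8.68e-06 and 1.12e-05) and the mitophagy receptor Bnip3l at the high end (0.17 and 0.21). Bok, an effector relative, fell in RPF by 1.21 in S51 and 1.16 in S51A (adjusted p = 2.39e-04 and 4.6e-05). Of 15 genes of the apoptosome, caspases and their inhibitors, 5 were higher and 6 lower in S51 total RNA, and 6 and 6 in S51A, beside the same background. Apaf1, the scaffold that cytochrome c assembles, rose in total RNA by 1.60 and 1.49 and in RPF by 1.91 and 1.59 (adjusted p at most 1.84e-09 in these 4 tests).

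Of 9 genes that act on MCL1 turnover, 7 were tested, and in RPF 5 passed with bortezomib in S51 (background 30.8%), 3 higher and 2 lower. In S51A 0 were higher (9.25%) and 1 lower (11.4%), and the difference between these counts was not tested. Dusp6, a phosphatase of ERK kinases, fell in RPF by 1.57 in S51 and 2.21 in S51A (adjusted p = 1.76e-07 and 1.08e-09). Huwe1, a ubiquitin ligase of MCL1, was the 1 gene of this list with an RPF response difference, 0.61 (SE 0.133, adjusted p = 0.0154), from 0.66 in S51 and 0.051 in S51A. Of 17 upstream regulators, 11 passed in RPF of S51 (background 30.8%), 7 higher and 4 lower, and in S51A 4 were higher (9.25%) and 2 lower (11.4%). The p53 targets Fas and Mdm2 rose in S51 RPF by 3.16 and 3.06, and in S51A by 1.76 and 2.48 (adjusted p at most 0.00259). The death receptor gene Tnfrsf10b rose by 2.28 and 1.91, and Myc fell by 2.11 and by 2.53 (adjusted p at most 2.45e-10 for both genes). Ddit3 (CHOP) rose by 2.94 in S51 RPF (adjusted p = 4.77e-07) and stood at 0.52 in S51A (adjusted p = 0.322), a response difference of 2.42 (adjusted p = 0.00735). Atf4 had the largest TE response difference of the 17, 1.503 (SE 0.183, adjusted p = 3.49e-06), with 1.46 in S51.

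The S51 RPF values of these list genes were also fitted without S51 vehicle replicate 2, an alternative chosen after seeing the data. Their changes with bortezomib were then -1.10 for Bok, 1.82 for Apaf1, -1.45 for Dusp6, 0.57 for Huwe1, 3.01 for Fas, 3.01 for Mdm2, 2.29 for Tnfrsf10b, -1.89 for Myc and 3.11 for Ddit3, each past the test. Of the MCL1 turnover genes 2 were then higher and 1 lower, and of the upstream regulators 8 and 2, where 30.1% of all genes passed. The RPF response differences of Huwe1 and Ddit3 (0.52 and 2.59, adjusted p = 0.00188 and 1.50e-04) and the TE one of Atf4 (1.49, adjusted p = 4.63e-08) passed again, and that of Dusp6 in RPF passed as well (0.76, adjusted p = 0.0155), where 5.02% of all genes passed in RPF and 2.12% in TE.

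The genes whose log2 CPM followed Pmaip1 most closely over the 16 total RNA libraries, among 11707 others, were the heat shock gene Hspa1b (Pearson r = 0.996), Zfand2a (0.996) and Hspa1a (0.992). Reads of Hspa1a and Hspa1b, which are nearly the same in sequence, may have been lost or divided by the unique mapping. Those of Bbc3 were Nupr1 (0.934), Ptprs (0.920) and Myh9 (0.918), and those of Mcl1 included Ets1 (0.904) and Actn4 (0.896). These correlations are over libraries of 4 groups that differ in treatment and genotype, and describe a shared group pattern.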

How the data were processed

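RPF and total RNA were each deposited by the authors as 1 table of whole-number counts per gene, without normalization. According to their methods, reads were trimmed, aligned to mm10 with bowtie2 and counted per gene with plastid, RPF reads without the first 15 and last 5 codons, while the submitters' processing notes name featureCounts in place of plastid, and no versions are given in the sources used here. Column names add that rRNA, repeats and marked duplicates were handled and that reads had a mapping quality of 50. RPF reads were limited to lengths from 20 to 23 and from 26 to 32 nucleotides. Such unique mapping and duplicate marking can lower counts of short abundant or duplicated genes. Gene names matched 20687 of 20704 and 24569 of 24593 identifiers. Columns were tied to groups by the series note on exchanged titles.

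From the counts, genes were filtered by filterByExpr (10 counts, total 15), scaled by TMM and fitted with edgeR 4.0.16 in R 4.3.3 (quasi-likelihood, 1 coefficient per group, all 4 groups of a kind), with Benjamini-Hochberg adjustment. TE was tested by fitting RPF and total RNA libraries together, as the extent to which a group effect differed between RPF and total RNA. The paper states that total mRNA was kept from the lysates and their remainder digested for RPFs, so libraries of 1 number may share a lysate. Only the replicate block uses that pairing, and the joint fit behind the TE values does not. The first form of that fit, with 1 dispersion for both kinds, made too many false calls on simulated counts, and so dispersions were estimated within each kind instead. That change was made after the data had been seen, and it ended the TE call of Pmaip1 in S51. On the same simulated counts DESeq2 also called too many TE changes. The simulated counts were drawn with separate dispersions for each kind and without pairing by lysate. In this they match the form chosen, so they cannot decide between the forms for paired data. SEs come from the working weights of the fit and intervals are 1.96 SE either way. Alternatives were RLE scaling, library sizes alone, no filter, DESeq2 1.42.0, voom in limma 3.58.1 for TE, only the groups compared, a replicate block, the study's fold limits (1.5 for RPF and TE, 2 for total RNA) and each library left out. No pair of libraries in a group was a duplicate, since the chi-square per gene between them was at least 1.66 over 21 RPF pairs and 2.78 over 24 total RNA pairs. Same-numbered total RNA libraries deviated together in 2 comparisons, S51A bortezomib against vehicle (r 0.114 to 0.321) and S51 against S51A with bortezomib (r 0.123 to 0.246), so that their numbers pair them by the data and not by the labels. Depths of each kind are given in the report, and counts under about 10 per library carry counting errors as large as most changes described.

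The members and lists were chosen with earlier results of these data known. The text names all 10 members, the ends of each list, list genes past the fold limit in a comparison (at most 8), Eif2s1, and the 3 genes nearest to Mcl1, Pmaip1 and Bbc3 by correlation. Results of 2 genes that this rule would name are not reported here. Promoter and coding sequences are those of RefSeq, GRCm38.p6.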

Additional observations from a re-analysis of the deposited data

Results flagged for a closer look

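Among 70 groups of 4 libraries, 2 held a library far from the others by Dixon's criterion, which chance meets in about 1 in 20 groups. The total RNA level of Bcl2l1 in S51A vehicle replicate 4 was 82.1 CPM, where the nearest of its group was 93.4 CPM. Without that library the fall of Bcl2l1 with bortezomib in S51A was -0.58 on the log2 scale, against -0.53 with it, and its response difference -0.22 against -0.27. Bcl2l2 had an RPF level of 0.378 CPM in S51 bortezomib replicate 3, which is 1 count where the other libraries of its group had 0.

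Of 26 differences between the genotypes' responses to bortezomib (S51 response minus S51A response, RPF and total RNA with TE), 5 passed edgeR's quasi-likelihood test with BH adjustment, all in total RNA. These were Bcl2l1 at -0.27 (adjusted p = 0.0113), Bax at -0.20 (0.0463), Bid at -0.30 (0.0482), Bbc3 at 0.92 (0.0491) and Pmaip1 at 0.27 (0.00462). Of all genes tested, 21.6% passed in total RNA, against 1.04% higher and 1.31% lower in RPF and 0.0953% and 0.889% in TE. That all calls lie in total RNA is therefore not read as a trait of the members. Leaving out any 1 total RNA library kept the calls of Bcl2l1 and Pmaip1.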

How the results depend on the processing

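Of 36 differences past the test, each recomputed under every alternative that could give a value (571 in all), 482 kept direction and call, 88 lost the call and 1 changed sign. Of 31 others (569 values), 25 gained a call and 15 changed sign. With single libraries left out, the S51 RPF change ran from -0.27 to 0.054 for Mcl1 (above 0 without vehicle replicate 2), -0.068 to 0.26 for Bax (below 0 without vehicle replicate 1 or 3), -0.14 to 0.043 for Bak1 (above 0 without vehicle replicate 1) and -0.086 to 0.23 for Bad (below 0 without vehicle replicate 1 or bortezomib replicate 1). In S51A RPF it ran from -0.0083 to 0.093 for Mcl1 (below 0 without replicate 4 of either group) and -0.25 to 0.095 for Bad (above 0 without vehicle replicate 2), in S51A total RNA from -0.043 to 0.041 for Bad (below 0 without bortezomib replicate 3 or vehicle replicate 1), and in S51 TE from -0.85 to 0.035 for Bbc3 (-0.48 with all, above 0 without RPF vehicle replicate 2). With library sizes alone, total RNA of Mcl1 was at -0.0049 in S51 and, in S51A, Mcl1 was at -0.071, Bak1 at -0.0062 and Bad at -0.11.

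The number of members past the test moved as follows, with no cause tested beyond the stricter limit or fewer libraries. The shares of all genes passing under these settings are not given, so nothing is read from these counts. The study's fold limit left 3 in S51 total RNA, 1 in S51A, 0 and 1 between the genotypes with vehicle and bortezomib, and 0 in the response difference. RLE scaling left 3 in the total RNA response difference, and leaving out single libraries 2 to 4. Leaving out single RPF libraries gave 0 to 3 between the genotypes with vehicle, 0 to 1 with bortezomib and 0 to 1 in the response difference, and only the groups compared gave 0 with bortezomib. In S51 TE, 1 member passed with library sizes alone, with DESeq2 and with 1 shared dispersion (the first form of the fit, which was made an alternative when the form used here was chosen after seeing the data), and 0 to 2 with single libraries left out. In the TE comparison of the genotypes with bortezomib DESeq2 called 1.

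Outside the total RNA comparisons named in the methods, deviations did not show that replicate numbers pair libraries, except in S51A vehicle. There, RPF and total RNA libraries of the same number deviated together (r 0.118 to 0.366). Deviations of same-numbered libraries of different groups correlated at -0.166 to 0.203 in RPF and 0.0427 to 0.321 in total RNA, and those of RPF and total RNA libraries of 1 number at -0.0654 to 0.366. The replicate block added 3 calls, Bbc3 between the genotypes in vehicle RPF (1.47, adjusted p = 0.0317), Bak1 in S51A total RNA (0.11, adjusted p = 0.0352) and Pmaip1 in S51 TE (0.54, adjusted p = 0.0490), and changed no other call among the members' reported differences. Low counts limit the RPF results of Bcl2l2, Bcl2l11 and Bbc3 most. The mean ratio of RPF to total RNA CPM in S51 vehicle was 0.021 for Bcl2l2, 0.32 for Bcl2l11 and 1.84 (SD 1.28) for Bbc3. The RPFs of Bcl2l2 were thus few for its total RNA and not only for the depth, and the cause was not tested.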
